A study of Mus musculus with 6 samples.

Results

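The miR-15 and miR-16 family was followed in mouse pancreas by small RNA sequencing. Its members were taken by name, and 7 of the 8 names on the list had a row among the 1414 of the deposited table: mmu-miR-16-5p, mmu-miR-15a-5p, mmu-miR-15a-3p, mmu-miR-15b-5p, mmu-miR-15b-3p, mmu-miR-16-2-3p and mmu-miR-195a-5p. The remaining one, mmu-miR-16-1-3p, is not analysed here. The species prefix is left out of most mentions below. The model group held 3 libraries from wild-type C57BL/6 mice that had received caerulein, a peptide that acts on the cholecystokinin receptor and drives acinar secretion, by intraperitoneal injection once an hour, 7 times over, at a stated 50 mg/kg and in the unit the labels give, with LPS (lipopolysaccharide, from the outer membrane of Gram-negative bacteria) joined to the last dose. The control group held 3 libraries from mice of that strain given saline in the same volume. Pancreas was collected 24 hours after the first injection, and no age is given in the sources used here. Neither agent was given by itself in these groups, and what each contributed cannot be told apart. Libraries are called by the numbers in their titles, 56, 57 and 59 for model and 43, 44 and 45 for control. The labels do not tie each library to a separate animal. The p-values below therefore reflect spread among libraries, part of which could be technical.

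A miRNA is cut from a hairpin precursor as a pair of short strands, the 5p and the 3p arm, and the strand that is kept in Argonaute pairs with messenger RNAs mainly through its seed, bases 2 to 8 from the 5′ end. The 5p arms of miR-15 and miR-16 are known to lower cyclins, cyclin-dependent kinases and the anti-apoptotic Bcl2, and they slow entry into the cell cycle. The hairpins sit in pairs: Mir15a and Mir16-1 in the noncoding host Dleu2, whose human counterpart is often deleted in chronic lymphocytic leukaemia, and Mir15b and Mir16-2 in Smc4, which codes for a condensin subunit used in mitosis. Mir195a lies beside Mir497.

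The mature 5p sequences are shown first because they define the family and show how little separates its members. Capitals mark the seed, and each sequence was read from the deposited table and equals the RefSeq entry (GRCm38.p6).
miR-16-5p: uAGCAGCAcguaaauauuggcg
miR-15a-5p: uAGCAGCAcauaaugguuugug
miR-15b-5p: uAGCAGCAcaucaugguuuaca
miR-195a-5p: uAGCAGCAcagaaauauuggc
All 4 carry the seed AGCAGCA and share their first 9 bases. Between miR-15a-5p and miR-15b-5p, 4 of 22 bases differ (A12C, G20A, U21C and G22A, counted from the 5′ end with the base of miR-15a-5p first). From miR-16-5p to miR-195a-5p only G10A and U11G differ over the 21 bases compared. Reads with mismatches could therefore be split between members in ways the deposited counts do not show.

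The 3p arms do not share a seed with each other or with the 5p arms. They are shown because they tell the hairpins apart, with capitals again at bases 2 to 8.
miR-15a-3p: cAGGCCAUacugugcugccuca
miR-15b-3p: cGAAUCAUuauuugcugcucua
miR-16-2-3p: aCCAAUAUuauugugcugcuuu
Each of these holds a stretch complementary to the seed of the 5p arms, over 7 bases in miR-15b-3p and miR-16-2-3p and over 6 in miR-15a-3p.

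The hairpins are printed to show the layout, with the annotated arms in capitals. In GRCm38, Mir15a is at chr14:61632027-61632110 and Mir16-1 at chr14:61631880-61631972, both on the minus strand and 54 bases apart. Mir15a lies in an intron of Dleu2 and Mir16-1 overlaps a Dleu2 exon in GENCODE M21.
Mir15a: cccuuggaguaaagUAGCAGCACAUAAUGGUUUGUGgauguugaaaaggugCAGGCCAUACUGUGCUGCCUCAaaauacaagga
Mir16-1: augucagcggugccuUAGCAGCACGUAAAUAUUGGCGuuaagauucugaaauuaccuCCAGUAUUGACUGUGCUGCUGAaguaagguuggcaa
On the plus strand of chromosome 3, Mir15b is at chr3:69009772-69009835 and Mir16-2 at chr3:69009902-69009996, 66 bases apart and both in an intron of Smc4.
Mir15b: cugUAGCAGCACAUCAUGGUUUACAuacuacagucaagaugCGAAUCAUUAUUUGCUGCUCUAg
Mir16-2: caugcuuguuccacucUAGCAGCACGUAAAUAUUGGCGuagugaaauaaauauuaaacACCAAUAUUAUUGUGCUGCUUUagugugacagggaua
Mir195a is at chr11:70235042-70235135 on the plus strand, 241 bases from Mir497, with no annotated host gene around it. Both Mir16-1 and Mir16-2 give the same miR-16-5p sequence, so its count cannot be divided between the loci.

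Total counts ran from 2489009 to 3006220 in model and from 1943693 to 2629801 in control libraries. Levels below are in CPM, read counts scaled for library size, here with TMM factors, which set the typical miRNA equal between libraries. A count of 0 allowed up to 3 counts, or 0.897 to 1.80 CPM, and these floors cover counting error only. The intervals given with fold changes also include the spread among libraries of a group. The table's counts made up 10.2% to 13.6% of the total behind the authors' RPM values in model libraries, against 7.17% to 9.43% in control libraries. That total is not explained in the sources used here. Against TMM, RLE factors moved the median row by 0.00 on the log2 scale, total counts alone by 0.30, upper quartile factors by -0.29 and the authors' library totals by 0.79, so directions of small changes depend on the scaling.

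No member of the family passed the test. Of the 7 members 6 passed the filter on low counts, and 0 of these 6 had an edgeR adjusted p under 0.05, where 1.20% of all 499 rows tested did. With DESeq2 the count was also 0 (11.3% of the 390 rows to which it gave an adjusted p), and miR-16-2-3p got no adjusted p. At an unadjusted p under 0.05 there was 1 member, miR-15a-5p (23.8% of all rows). In 1 of the 6 the groups did not overlap, again miR-15a-5p, against 31.1% of all rows in either direction and 16.6% with the model below. The median log2 fold change of the 6 was 0.28, beside 0.00 over all rows tested, with 4 values above 0 and 2 below. Single libraries decided this value: it was -0.04 without control library 43, 0.13 without control library 44, 0.03 without model library 59 and 0.46 without control library 45, and with upper quartile factors it was -0.003.

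mmu-miR-16-5p, the most abundant member, had means that differed by less than the spread between the controls. mmu-miR-16-5p stood at 13766, 16049 and 16180 CPM in model libraries 56, 57 and 59, and at 12584, 15724 and 20438 CPM in control libraries 43, 44 and 45. The model libraries lay inside the range of the controls, whose highest value was that of library 45. The means were 15332 ± 1358 CPM in model and 16249 ± 3953 CPM in control (SD, n = 3 each), 23rd of the rows tested by mean level. Its log2 fold change was -0.08 (95% interval -0.52 to 0.36, edgeR adjusted p = 0.832, SE 0.19). The sign turned under total counts alone (0.23), without control library 45 (0.09), without model library 56 (0.03) and under the authors' library totals (0.76, edgeR adjusted p = 0.0318). On the authors' RPM scale the values of miR-16-5p were 1527, 2372 and 2229 in model libraries and 1172, 1184 and 1258 in control libraries. There the groups did not overlap, as was so with the model above for 49.5% of the rows tested.

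mmu-miR-15a-5p, whose hairpin is the neighbour of Mir16-1, was the member with the least overlap between groups. The levels of mmu-miR-15a-5p were 8349, 8967 and 8470 CPM in model libraries and 10055, 12452 and 10927 CPM in control libraries. All 3 model libraries lay below all 3 controls, and they differed from each other by less than the controls did. The mean was 8595 ± 328 CPM in model and 11145 ± 1213 CPM in control libraries (SD, n = 3 each), a ratio of 0.771. The log2 fold change was -0.37 (95% interval -0.69 to -0.06, edgeR adjusted p = 0.157, SE 0.14). Abundant miRNAs had values of this size as a class: among 32 rows averaging 10000 CPM or more, 30 were negative and the median log2 fold change was -0.37. With the authors' library totals the log2 fold change of miR-15a-5p was 0.42 (edgeR adjusted p = 0.225), and with total counts alone it was -0.07. It ran from -0.46 to -0.30 when 1 library was left out.

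mmu-miR-15b-5p, from the Smc4 locus, had a higher mean in model libraries, and the groups overlapped through library 56. mmu-miR-15b-5p was at 666, 784 and 1225 CPM in model libraries and at 692, 551 and 739 CPM in control libraries. Library 59 stood well above the other model libraries, and library 56 lay within the range of the controls. The means were 892 ± 294 CPM in model and 661 ± 98.0 CPM in control (SD, n = 3 each), with a log2 fold change of 0.43 (95% interval -0.23 to 1.10, edgeR adjusted p = 0.414, SE 0.29). Without model library 59 it was 0.16, and with the authors' library totals 1.24 (edgeR adjusted p = 0.0306).

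mmu-miR-195a-5p, the member from chromosome 11, spread more between libraries of one group than between the groups. The values of mmu-miR-195a-5p were 652, 791 and 1324 CPM in model libraries and 458, 565 and 1446 CPM in control libraries. In each group 1 library, 59 among the model and 45 among the controls, stood apart at a high level. The means were 922 ± 354 CPM in model and 823 ± 542 CPM in control (SD, n = 3 each). The log2 fold change was 0.16 (95% interval -0.97 to 1.30, edgeR adjusted p = 0.883, SE 0.49). It was 0.83 without control library 45 and -0.17 without model library 59, and it was below 0 with upper quartile factors (-0.13).

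**Figure D1:**
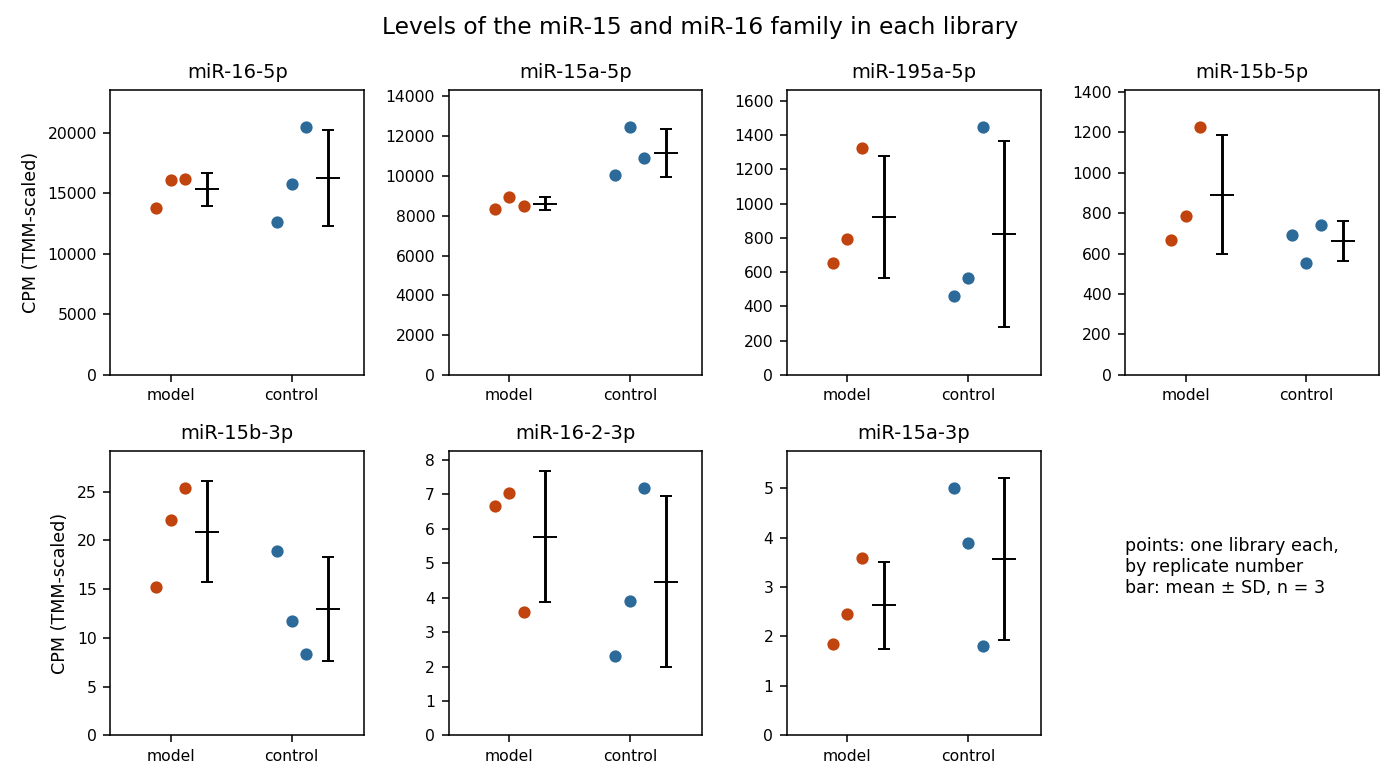
Levels of the 7 members in TMM-scaled CPM (vertical axes, linear, each with its own range) in the 3 model (red) and 3 control (blue) libraries, with points ordered by library number and bars for mean ± SD. The model libraries of miR-15a-5p, at 8349 to 8967 CPM, all lie below the controls, while the groups overlap for the other 6 members.

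The 3p arms of the family were scarce. mmu-miR-15b-3p had 198 counts over the model and 87 over the control libraries, with 15.2, 22.1 and 25.4 CPM in model and 18.9, 11.7 and 8.40 CPM in control libraries. Library 56 lay below control library 43, so the groups overlapped. Its log2 fold change was 0.67 (edgeR adjusted p = 0.344, SE 0.39), and 1.42 with the authors' library totals (edgeR adjusted p = 0.0426). miR-16-2-3p, which marks the chromosome 3 copy of miR-16, had 6.67, 7.05 and 3.59 CPM in model and 2.31, 3.89 and 7.20 CPM in control libraries. It rested on 53 and 26 counts, and a log2 fold change of 0.40 with an SE of 0.53 (edgeR adjusted p = 0.726) leaves its direction undetermined at this depth. miR-15a-3p was below the filter, with 25 counts over the model and 24 over the control libraries. Its levels ran from 1.85 to 3.59 CPM in model and from 1.80 to 5.01 CPM in control libraries, near the floor of a single library.

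With the authors' library totals 3 of the 6 tested members, miR-16-5p, miR-15b-5p and miR-15b-3p, passed the edgeR threshold as higher, where 24.8% of all rows did (25.3% in either direction). The median row stood at 0.79 on that log2 scale, above the 0.76 of miR-16-5p. The plot of fold changes sets the 4 scalings side by side.

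**Figure D2:**
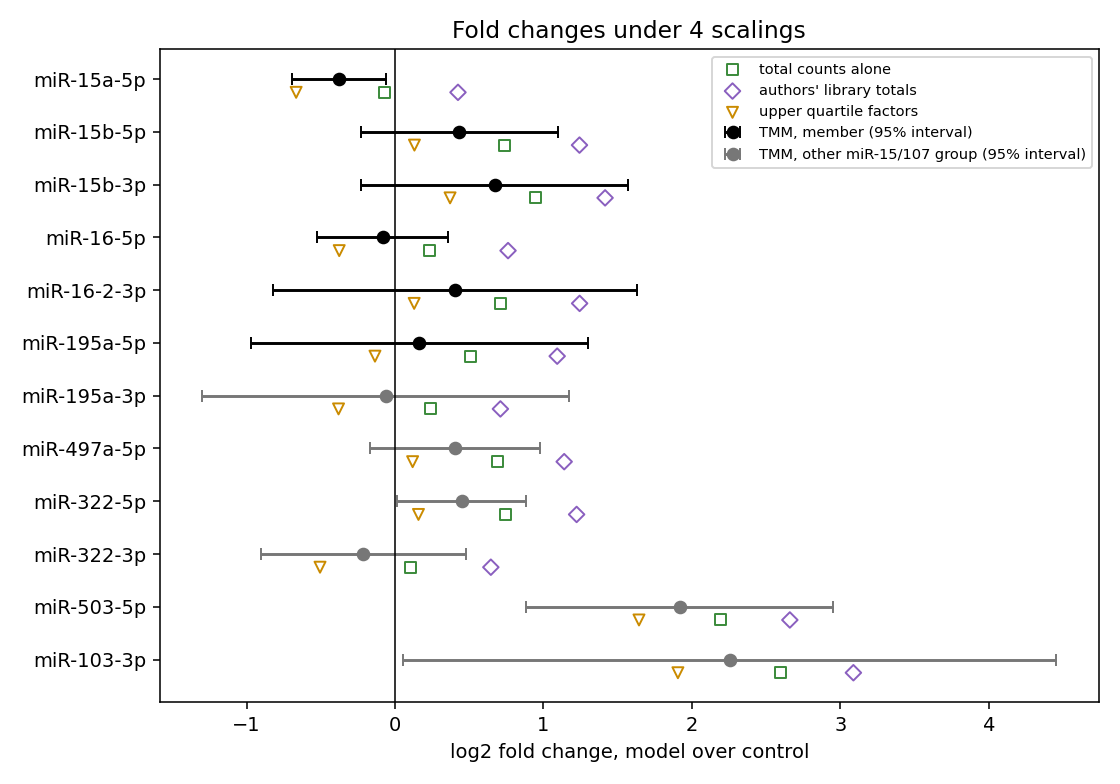
Log2 fold change of model over control (horizontal axis) for the 6 tested members (black) and 6 tested relatives (grey) with TMM scaling and 95% intervals, and as open symbols under 3 other scalings. Each row moves from left to right in the order upper quartile, TMM, total counts and authors' totals, and among the members miR-15a-5p, miR-16-5p and miR-195a-5p stand on both sides of 0.

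How the libraries are scaled has no bearing on the ratio of 5p to 3p arm counts. This ratio was tested with limma over the 141 hairpins with at least 10 counts on average on both arms, of which 0.709% passed, and 0 of the 3 family hairpins tested did. At an unadjusted p under 0.05 there were 0 of the family and 13.5% of all hairpins. The 5p arm of miR-15b outnumbered its 3p arm by 35.0 to 47.7 times in model and 36.0 to 82.3 times in control libraries. The change in its log2 ratio was -0.30 (SE 0.39, limma adjusted p = 0.818). miR-16-5p, set against miR-16-2-3p alone, was 1955 to 4164 times as frequent in model and 2622 to 4668 times in control libraries, with a change of -0.44 (SE 0.41, limma adjusted p = 0.693). For miR-195a the factor ran from 136 to 177 in model and from 58.0 to 483 in control libraries, and the change was 0.26 (SE 0.76, limma adjusted p = 0.950). The 5p arm was the far more frequent strand in each of the 6 libraries for miR-15b and miR-195a. For miR-16 the factor is not that of a single hairpin, since miR-16-5p comes from both Mir16-1 and Mir16-2.

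Ratios between members within a library are also free of scaling, and 4 were computed. In the ratio of miR-15b-5p to miR-15a-5p, paralogues from chromosomes 3 and 14, the model libraries stood at -3.65, -3.51 and -2.79 on the log2 scale and the controls at -3.86, -4.50 and -3.88. Every model library lay above every control. miR-15a-5p was on average 9.97 times as frequent as miR-15b-5p in model and 16.9 times in control libraries, a difference of 0.76 in the log2 ratio. The two-sided exact permutation p was 0.1, the smallest that 3 libraries against 3 can give, and 0.4 after adjustment over the 4 ratios. The difference ran from 0.50 to 0.93 when 1 library was left out.

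The other 3 ratios overlapped between the groups. Within each library miR-16-5p was above miR-15a-5p, by 1.78 times on average in model and 1.44 times in control libraries. The log2 ratio of miR-15a-5p to miR-16-5p was -0.83 ± 0.11 in model and -0.52 ± 0.33 in control libraries (SD, n = 3 each, exact permutation p = 0.3). Control libraries 43 and 44 stood at -0.32 and -0.34, and control library 45, at -0.90, lay among the model libraries. miR-16-5p was 17.7 times as frequent as miR-15b-5p in model and 24.3 times in control libraries (exact permutation p = 0.3), and 17.4 and 22.1 times as frequent as miR-195a-5p (exact permutation p = 0.5). By order of level, miR-16-5p came first and miR-15a-5p next, while miR-195a-5p and miR-15b-5p overlapped with each other in both groups. Ligation efficiency differs between small RNAs, so an order of levels between members is one of read counts.

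**Figure D3:**
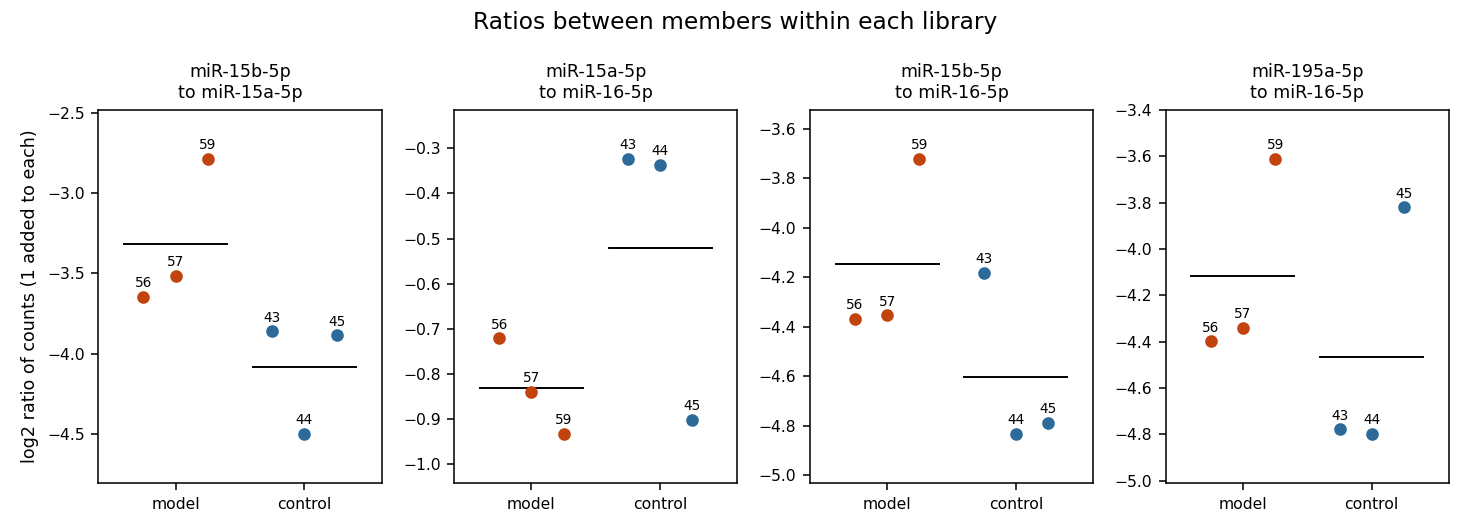
Log2 ratio of counts between pairs of members within each library (vertical axes, 1 count added to each), with points labelled by library number and lines at the group means. The 3 model libraries lie above the 3 controls for miR-15b-5p to miR-15a-5p, and control library 45 lies away from the other controls for miR-15a-5p and miR-195a-5p to miR-16-5p.

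A messenger RNA site for the seed can be met by any miRNA that carries it, so the counts of the 6 rows with AGCAGCA at bases 2 to 8 were added up. These rows, 0.424% of the table, were the 4 members' 5p arms, miR-322-5p and miR-497a-5p. Together they took 3.21% ± 0.32 of all counts in model and 2.79% ± 0.23 in control libraries (SD, n = 3 each), with 2.89% to 3.52% in model and 2.58% to 3.05% in control libraries. The 4 members alone took 2.86% ± 0.31 and 2.58% ± 0.27 in model and control libraries. These ranges overlap, and no test is given for sums over chosen members.

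Within this pool of shared-seed counts miR-16-5p made up 53.1% ± 1.30 in model and 51.7% ± 5.16 in control libraries (SD, n = 3 each). miR-15a-5p made up 29.8% ± 1.76 in model and 36.1% ± 4.60 in control libraries. Its share in control library 45, 30.8%, lay within the model range of 27.9% to 31.3%. miR-322-5p made up 7.94% ± 0.54 in model and 5.48% ± 1.17 in control libraries, and its groups did not overlap. The groups overlapped for every other share in the pool. By CPM the groups did not overlap in 31.1% of all rows tested, and the shares were not tested. miR-15b-5p and miR-195a-5p each held 4.36% or less in each library.

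**Figure D4:**
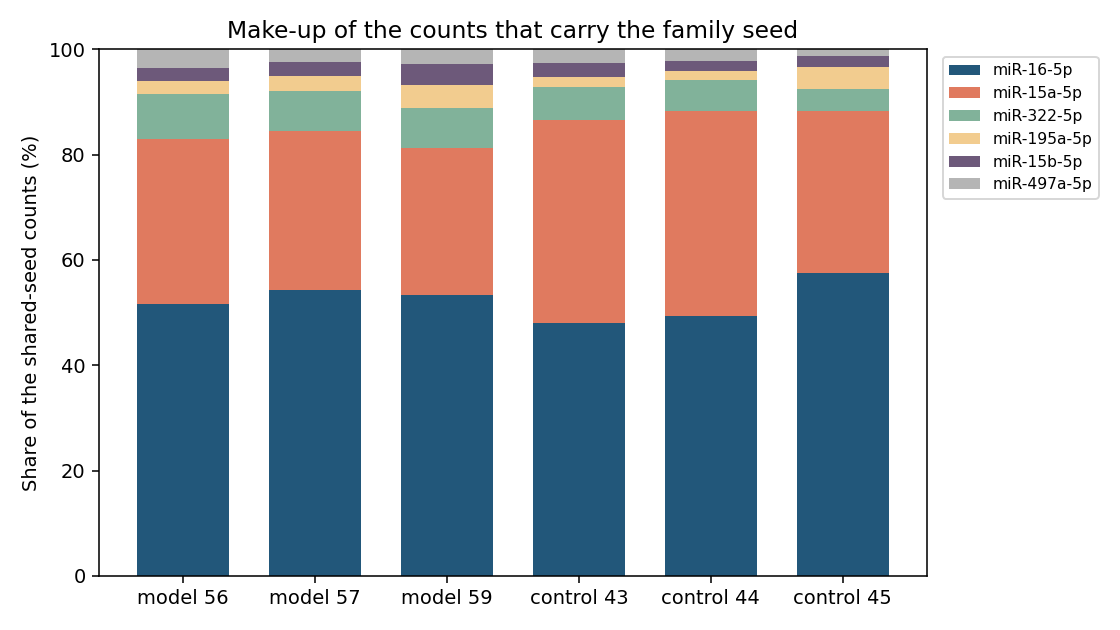
Share of each of the 6 miRNAs in the counts that carry the seed of the family (vertical axis, percent), for each model and control library. miR-16-5p and miR-15a-5p fill most of each bar, and the band of miR-322-5p is wider in the model libraries, at 7.61% to 8.56%, than in the controls, at 4.15% to 6.38%.

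The wider miR-15 and miR-107 group holds relatives with nearly the same 5′ end, listed here together with opposite arms, which lack it. Of its 12 rows outside the members 6 passed the filter. The opposite arms among the 6 were miR-195a-3p and miR-322-3p, and the other 4 are shown with bases 2 to 8 in capitals.
miR-497a-5p: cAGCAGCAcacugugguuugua
miR-322-5p: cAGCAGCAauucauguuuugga
miR-503-5p: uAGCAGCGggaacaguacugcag
miR-103-3p: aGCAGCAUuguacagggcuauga
miR-503-5p departs from the family by the last base of the seed (A8G, base of miR-16-5p first), and miR-103-3p, a miRNA linked to insulin signalling, holds the same letters 1 base nearer to its 5′ end. Of the 6 relatives 0 passed the edgeR threshold and 3 had an unadjusted p under 0.05 (23.8% of all rows). In 4, those shown here, every model library lay above every control (14.4% of all rows). DESeq2 called 1 of the 4 to which it gave an adjusted p, miR-503-5p, as higher (5.64% of its rows). With the authors' library totals edgeR called 3 as higher (24.8% of all rows). The median log2 fold change of the 6, opposite arms included, was 0.43.

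miR-503-5p and miR-322-5p come from 1 cluster on the X chromosome, and both are known to restrain the cell cycle. miR-503-5p was at 25.2, 20.6 and 29.9 CPM in model and at 9.63, 2.92 and 7.20 CPM in control libraries. Each model library had more than 2 times the level of the highest control. Its log2 fold change was 1.92 (edgeR adjusted p = 0.0731, SE 0.44), with an adjusted p of 0.00461 by DESeq2. The fold change was 1.56 or more in every alternative run. Its edgeR adjusted p was 0.0496 with total counts alone, 0.00236 without a filter and 0.00177 with the authors' library totals. In every other edgeR run the adjusted p stayed above 0.05. It was 0.0514 with upper quartile factors, 0.0623 with RLE factors and 0.0744 to 0.209 with 1 library left out. Control libraries 43, 44 and 45 held 25, 6 and 12 counts of miR-503-5p. miR-322-5p was at 2281, 2264 and 2311 CPM in model and at 1669, 1882 and 1475 CPM in control libraries. Its model libraries were nearly equal and all above the controls, with a log2 fold change of 0.45 (edgeR adjusted p = 0.198, SE 0.19) that was 1.22 with the authors' library totals (edgeR adjusted p = 0.0199). The opposite arm miR-322-3p had one of -0.21 (edgeR adjusted p = 0.748, SE 0.30), which was 0.10 under total counts alone and 0.65 under the authors' library totals.

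miR-497a-5p, the neighbour of miR-195a, was at 928, 731 and 846 CPM in model and at 697, 725 and 473 CPM in control libraries, with a log2 fold change of 0.40 (edgeR adjusted p = 0.370, SE 0.25) that was 1.14 with the authors' library totals (edgeR adjusted p = 0.0387). Control library 45, the highest control for miR-195a-5p, was the lowest for miR-497a-5p. Across the 6 libraries log2 CPM of these neighbours had a Pearson r of -0.38, while miR-195a-5p and miR-16-5p, which differ at 2 bases and lie on different chromosomes, had one of 0.83. Miscounting between these near-identical sequences was not tested. The scarce miR-195a-3p had a log2 fold change of -0.06 (edgeR adjusted p = 0.967, SE 0.53), which turned to 0.24 with total counts alone. miR-103-3p was at 415, 395 and 4135 CPM in model and at 353, 315 and 368 CPM in control libraries. Its log2 fold change of 2.26 (edgeR adjusted p = 0.201, SE 0.93) was 0.26 without model library 59. Its near-copy miR-107-3p had 12 counts over the model and 3 over the control libraries.

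Other miRNAs with known roles in the cell cycle gave a background for the family. Of 18 that restrain it, all tested, 0 passed with edgeR or with DESeq2 and 10 had an unadjusted edgeR p under 0.05, where 23.8% of all rows did. Other scalings of the edgeR test gave 3 lower with RLE factors (8 of all 499 rows) and 7 lower with upper quartile factors (39 of 499). They gave 1 higher with total counts alone (17 of 499) and 5 higher with the authors' library totals (124 of 499). Without a filter 3 were lower (35 of 1414). With TMM 7 were positive and 11 negative, with a median log2 fold change of -0.20, whereas the median was 0.10 under total counts alone and all 18 were positive under the authors' library totals. The most abundant were miR-26a-5p, with a log2 fold change of -0.60 (edgeR adjusted p = 0.0564) that was 0.21 with the authors' library totals, and let-7c-5p, with -0.51 (edgeR adjusted p = 0.0731) that was 0.29 with those totals. Of 12 that promote it, 1 was higher with edgeR (1.00% of all rows) and 4 of 11 given an adjusted p with DESeq2 (5.64% of its rows), and 0 were lower with either. At an unadjusted edgeR p under 0.05 there were 6 of the 12 (23.8% of all rows). Of the 12, 10 were positive and 2 negative (251 and 248 of all 499 rows), and the median was 0.61. Under upper quartile factors 1 was higher (6 of 499), 9 were positive and 3 negative, and the median was 0.32. With edgeR 2 were higher under RLE factors (7 of all 499 rows) and 4 under total counts alone (17 of 499). Without a filter 4 were higher (23 of 1414), and under the authors' library totals 9 (124 of 499). miR-18a-5p, from the cluster that Mir17hg hosts, was the one that passed, at 173 ± 19.1 CPM in model and 46.8 ± 4.72 CPM in control libraries (SD, n = 3 each, log2 fold change 1.88, edgeR adjusted p = 0.0077). The most abundant were miR-21a-5p (0.77, edgeR adjusted p = 0.0564) and miR-92a-3p (0.33, edgeR adjusted p = 0.368). The family's median of 0.28 lay between those of both lists, but it includes the scarce 3p arms miR-15b-3p and miR-16-2-3p. Its 5p arms stood at -0.37 (miR-15a-5p), -0.08 (miR-16-5p), 0.16 (miR-195a-5p) and 0.43 (miR-15b-5p). Without control library 43 the family's median was -0.04.

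Markers of cell types were read in the same libraries. In bulk tissue fewer cells of a type and less RNA per cell cannot be told apart. Of 6 leukocyte markers 1 was higher with edgeR (1.00% of all rows), the myeloid miR-223-3p, and 3 with DESeq2 (5.64% of its rows). At an unadjusted edgeR p under 0.05 there were 3 (23.8% of all rows), and 3 had every model library above every control (14.4% of all rows). Positive values were found in 5 of the 6, and the median log2 fold change was 1.22. Their summed level ran from 5503 to 12237 CPM in model and from 4855 to 7217 CPM in control libraries. Much of that sum was the lymphocyte miRNA mmu-miR-150-5p, the one negative member (log2 fold change -0.35, edgeR adjusted p = 0.735), at 1429, 5840 and 3093 CPM in model and 5235, 4259 and 3717 CPM in control libraries. Red blood cells are rich in miR-16. Of 5 erythroid rows, a pair of which share a sequence, 0 passed with edgeR. With DESeq2 0 of the 4 given an adjusted p passed. An unadjusted edgeR p under 0.05 was found for 0 of the 5 erythroid rows (23.8% of all rows). Their sum ran from 7169 to 12252 CPM in model and from 10748 to 13744 CPM in control libraries. Of 4 acinar markers 0 passed with edgeR or DESeq2, and 1 had an unadjusted edgeR p under 0.05 (23.8% of all rows). Their sum ran from 47827 to 50990 CPM in model and from 55777 to 92618 CPM in control libraries. The highest of these sums was in control library 45, which also had the highest miR-16-5p and miR-195a-5p. In model against control libraries, sums ran from 38838 to 52091 against 58828 to 80826 CPM for 2 islet markers. They ran from 32211 to 37872 against 40568 to 47690 CPM for 2 endothelial markers. For 5 mesenchymal markers they ran from 17317 to 20913 against 18091 to 27991 CPM. Most of each sum was 1 row: miR-375-3p, miR-126a-3p and miR-143-3p. Of the other rows miR-7a-5p had a log2 fold change of 0.005 and miR-126a-5p one of 0.12. Of the mesenchymal rows 3 were positive and 2 negative, with a median of 0.20. Of these 3 lists 0 rows passed with edgeR (1.20% of all rows). Each list had 1 row at an unadjusted edgeR p under 0.05 (23.8% of all rows). DESeq2 called 1 row of the 3 lists, the islet miRNA miR-375-3p, lower (5.64% of its rows). With the authors' library totals all markers of these 6 lists were positive, and the median log2 fold changes turned to 0.36 for acinar (-0.49 with TMM), 0.44 for islet (-0.36), 0.67 for endothelial (-0.12) and 0.68 for erythroid markers (-0.11). On that scale edgeR called 1 islet, 1 endothelial, 3 mesenchymal and 3 leukocyte markers higher, as it did 24.8% of all rows. Other edgeR runs also called markers lower. With RLE factors this was 1 islet marker (8 of all 499 rows). With upper quartile factors (39 of 499) and without a filter (35 of 1414) it was 1 islet and 1 acinar marker. Of the leukocyte markers 2 were higher with RLE factors (7 of 499), total counts alone (17 of 499) and upper quartile factors (6 of 499). Without a filter 3 were higher (23 of 1414). None of the listed markers was at 0 on average in either group, and the part of these cell types in the family's levels was not tested.

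The rows most like miR-16-5p over the 6 libraries, among 205 rows of at least 100 CPM outside the family and the miR-15 and miR-107 group, were miR-700-5p (Pearson r 0.95), miR-676-5p (0.84), miR-30b-5p (0.82), miR-141-3p (0.79) and miR-532-5p (0.78). For miR-15b-5p they were miR-130a-3p (0.95), miR-339-5p (0.86), miR-101a-3p (0.84), miR-671-5p (0.84) and miR-199a-3p (0.81). These values describe 6 points each, share the library scaling and were the highest of many. Spearman rho, taken on ranks, was 0.94 for miR-700-5p but 0.60 for miR-30b-5p, 0.43 for miR-532-5p and 0.09 for miR-141-3p. For miR-15b-5p it was 0.60 or more in each row. Single libraries stood apart in some rows. miR-141-3p was at 18875 CPM in control library 45 and at 12211 to 14311 CPM in the others. miR-130a-3p was at 1030 CPM in model library 59 and at 147 to 249 CPM in the others. The 2 lists have no row in common. Among the members themselves miR-15a-5p and miR-15b-5p had an r of -0.63, miR-15a-5p and miR-16-5p one of 0.29, and miR-15b-5p and miR-16-5p one of 0.20. miR-15a-5p and miR-503-5p had an r of -0.99, the most extreme of all pairs among tested members and relatives. In both the groups did not overlap, with the model below for miR-15a-5p and above for miR-503-5p, so this r includes the difference between groups. Their counts differ by a wide margin in depth, with 43 counts of miR-503-5p over the 3 controls.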

How the data were processed

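Per the labels' protocols, gel-selected small RNA (18 to 30 nt) received adapters with unique molecular identifiers and was amplified. The authors deposited whole-number read counts per mature arm, and RPM values that divide each count by a library total. The submitters' processing notes name Bowtie2 and GRCm38.p6 without a role, and no source used here says whether identifiers were collapsed. The test on counts of 6 libraries (1943693 to 3006220 each) was that of edgeR 4.0.16, R 4.3.3: filterByExpr (minimum count 10, minimum total 15), TMM factors, robust two-sided quasi-likelihood test, Benjamini-Hochberg adjustment over 499 rows, threshold 0.05. SEs and 95% intervals were taken from the F statistic. Arm ratios used limma 3.58.1 with 1 count added, and members were compared by exact permutation. DESeq2 1.42.0, other scalings, no filter and leaving out each library were alternatives. Replicates differed beyond sampling noise (chi-square per degree of freedom of at least 98.7 within groups). Each fit was first tested on simulated data. Every simulated row had the same extra spread, and changes were drawn equally up and down, so the choice of scaling was not tested there. Named are all members, every tested relative, the 2 most abundant and any called of each cell-cycle list, and the 5 rows most like each of 2 members. Members and lists were chosen with earlier results of these data known. The planned ratio with miR-16-1-3p was not computed, so 4 ratios were adjusted together.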

Additional observations from a re-analysis of the deposited data

How the results depend on the processing

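No paired analysis was possible because the groups share no library numbers. Counts of miRNAs higher and lower in model were 5 and 1 with TMM, 7 and 8 with RLE factors, 17 and 1 with total counts alone, 6 and 39 with upper quartile factors, 124 and 2 with the authors' library totals, 23 and 35 without a filter, 22 and 22 with DESeq2, and 4 and 2 with the newer quasi-likelihood dispersion. Leaving out 1 library gave 3 to 5 higher and 0 to 5 lower. Members stayed without a call under every alternative but the authors' library totals, where miR-15b-5p (1.24), miR-15b-3p (1.42) and miR-16-5p (0.76) passed and miR-15a-5p turned to 0.42. miR-16-5p also turned with total counts alone (0.23), and miR-195a-5p with upper quartile factors (-0.13). With 1 library left out, log2 fold changes ran from -0.25 to 0.089 for miR-16-5p and from -0.17 to 0.83 for miR-195a-5p, and changes in the arm ratio from -0.56 to 0.040 for miR-15b and from -0.32 to 1.21 for miR-195a. Among relatives miR-195a-3p turned positive with total counts alone (0.24), the authors' totals (0.71) and leave-one-out (-0.42 to 0.44), miR-322-3p with total counts alone (0.10) and the authors' totals (0.65). Relatives gained calls: miR-503-5p with total counts alone, without a filter, with DESeq2 and with the authors' totals, and miR-322-5p and miR-497a-5p with the authors' totals. The median of the 6 members ran from -0.04 to 0.46 with 1 library left out. The cause was not tested. The 4 ratios between members and the summed share kept their sign in every alternative run. Depth limits the 3p arms most, since 26 counts of miR-16-2-3p lie behind its 3 controls.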
